A study of Mus musculus with 9 samples.

Results

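Anti-PD-1 antibody was given to the mice behind 5 RNA-seq libraries and withheld from the mice behind the other 4, and the comparison of these sets is described here across all protein-coding genes. Members were chosen by treatment, with earlier results of these data known, and are 9 of the 9 libraries in the series. The antibody-treated set joins anti-PD-1 (2 libraries) with COMB, which received the antibody and OAT-1746 (3 libraries). The antibody-free set joins CTR (2 libraries) with OAT-1746 alone (2 libraries). All were C57BL/6J mice, male and 10 to 12 weeks old by the methods, that carried GL261 glioma cells expressing tdTomato and luciferase in the right striatum. OAT-1746 is an oral inhibitor of arginase, dosed by gavage at 50 mg/kg, and the antibody was injected into the peritoneum at 2.5 mg/kg between day 8 and day 14 after implantation. Controls received saline. Cells positive for CD11b, a surface integrin of myeloid cells and of mature NK cells, were sorted from the brain on day 28 by the methods or day 21 by a figure legend. For replicate 2 of the anti-PD-1 group the treatment label reads PD-2, and its title, which reads as the rest of the group, was followed. The methods speak of biological replicates, and the labels do not say that each library is a separate mouse, so p-values measure the spread among these libraries only.

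PD-1 is an inhibitory receptor of activated T cells and NK cells, and its ligands PD-L1 and PD-L2 are carried by macrophages, dendritic cells and tumor cells. Antibodies that block it release lymphocytes from that brake. NK cells kill with perforin and granzymes, sense target cells through lectin-like receptors of the Klr family, and secrete interferon gamma, which switches on GTPases and chemokines in macrophages and microglia.

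Reads counted on genes numbered 17490386 and 17729568 in CTR, 17380045 and 16784406 in OAT-1746, 14356928 and 18796479 in anti-PD-1, and 13048075, 16144518 and 14806017 in COMB. Levels are given as CPM, the counts of a gene divided by a library total that TMM scaling, a method resting on the bulk of the genes, has set to a common level. OAT-1746 replicate 2 stood apart: over the tested genes, which are not independent, its log2 CPM correlated with those of the other 8 at Pearson's r between 0.911 and 0.956. Some values are therefore also given without it. Itgam, which encodes CD11b, was at 302 and 369.5 CPM in CTR, 445 and 446 in OAT-1746, 294 and 327 in anti-PD-1 and 366, 307 and 328 in COMB. It was abundant in every library and highest in the OAT-1746 pair, and the sets overlapped. Among the lists of cell type genes, microglial genes summed to 24339.7 and 35861 CPM in CTR, 47116 and 57674 in OAT-1746, 33787 and 29053 in anti-PD-1 and 40682, 31185 and 30536 in COMB. The myeloid genes thus far exceeded the lymphocyte genes, since T cell genes summed to between 55.3 and 111 CPM, and B cell genes to between 41.5 and 61.1 CPM.

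The antibody effect was estimated in a model with a term for the antibody and a term for OAT-1746, so that it averages over mice with and without the inhibitor. Calls are genes with a p under 0.05 after Benjamini-Hochberg adjustment over all tested genes. Of 12538 tested genes, edgeR's quasi-likelihood test called 0 (0%), with adjusted p values from 0.417 upward. Before adjustment, 790 genes were higher with the antibody (6.3%) and 671 lower (5.35%) at p under 0.05. DESeq2's Wald test called 69 of 12051 genes higher (0.573%) and 23 lower (0.191%). With all 5 antibody-treated libraries above all 4 others there were 209 genes (1.67%), and with all 5 below there were 165 (1.32%). Leaving out OAT-1746 replicate 2 gave 521 higher and 293 lower genes at that unadjusted threshold. The counts were 496 and 320 without COMB replicate 2, 444 and 339 without COMB replicate 3, 724 and 404 without OAT-1746 replicate 1, 1089 and 1060 without CTR replicate 1, and 981 and 1212 without anti-PD-1 replicate 2. Correcting for gene length and GC content turned the balance to 548 higher and 956 lower. A group left with 1 library is assumed to vary like the others.

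Cebpb, the gene of the macrophage transcription factor C/EBP-beta, had the smallest p of all tested genes. It was at 233 and 133 CPM in CTR, 180.0 and 93.7 in OAT-1746, 557 and 756 in anti-PD-1 and 357, 455 and 537 in COMB. Every antibody-treated library stood above every antibody-free library, in mice with and without OAT-1746. The log2 difference was 1.78 ± 0.25 (± standard error, with an adjusted p of 0.417 by edgeR and 6.78e-08 by DESeq2), a ratio of 3.42. It was 1.85 ± 0.37 for anti-PD-1 against CTR and 1.72 ± 0.35 for COMB against OAT-1746. Without OAT-1746 replicate 2 the difference was 1.62.

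Among the 12 higher genes with the smallest p and a mean of at least 1 CPM, Bri3, a small membrane protein, was at 89.7 and 80.9 CPM in CTR, 80.1 and 58.5 in OAT-1746, 177 and 131 in anti-PD-1 and 118, 159 and 134 in COMB. Its antibody-treated libraries all lay above the others, by a log2 difference of 0.92 ± 0.15. Ubd encodes the ubiquitin-like protein FAT10, which interferon gamma and TNF induce, and was at 0.661 and 0.235 CPM in CTR, 0.757 and 1.09 in OAT-1746, 1.95 and 1.18 in anti-PD-1 and 2.23, 3.83 and 3.12 in COMB. The sets did not overlap, although the antibody-free libraries held only 47 reads in all, and the difference was 1.75 ± 0.37. Rpl39, a protein of the large ribosomal subunit, was at 175 and 133 CPM in CTR, 80.3 and 81.1 in OAT-1746, 244 and 220.0 in anti-PD-1 and 224, 330.2 and 265 in COMB. Its OAT-1746 libraries were the lowest and the sets did not overlap, with a difference of 1.22 ± 0.25. Rpl22l1, of the same subunit, differed by 1.06. The remaining 7 had log2 differences between 0.58 and 0.84. They were the histone deacetylase complex subunit Sap30l, Cdk2ap1, the phosphatase 1 regulators Ppp1r14b and Ppp1r35, the mRNA export adaptor Alyref, the RNA-binding protein Hnrnpa0, and Triap1, an inhibitor of apoptosis. Only Alyref among these 12 had overlapping sets. Each of the 12 had an edgeR adjusted p of 0.417 and passed 0.05 in DESeq2, and none changed sign in any alternative tried. The 12 were picked for a small p in these same libraries, so kept signs and separate sets are no independent test.

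On the lower side, Slc16a7, a transporter of lactate and pyruvate, was at 40.3 and 46.1 CPM in CTR, 56.0 and 56.1 in OAT-1746, 28.9 and 33.0 in anti-PD-1 and 37.2, 30.2 and 33.5 in COMB. All antibody-treated libraries were below all others, by -0.62 ± 0.12 in log2 (edgeR adjusted p = 0.417, DESeq2 adjusted p = 0.00229). The scaffold protein gene Lin7c was at 75.3 and 73.0 CPM in CTR, 76.2 and 80.1 in OAT-1746, 44.9 and 56.9 in anti-PD-1 and 54.9, 60.5 and 52.2 in COMB. Its sets did not overlap either, and the difference was -0.51 ± 0.11, nearly the same in mice without OAT-1746 (-0.54) and with it (-0.48). mt-Nd1, a subunit of respiratory complex I encoded in the mitochondrial genome, was at 1873 and 2113 CPM in CTR, 4076 and 3604 in OAT-1746, 1062 and 1427 in anti-PD-1 and 1929, 1248 and 1290.2 in COMB. The OAT-1746 pair was far above the other libraries, and COMB replicate 1 overlapped CTR. Its difference of -1.06 ± 0.21 was -0.68 without OAT-1746 and -1.37 with it. Snap25, a neuronal protein of vesicle release, was at 2.10 and 1.88 CPM in CTR, 4.37 and 5.26 in OAT-1746, 1.11 and 1.07 in anti-PD-1 and 1.19, 0.726 and 0.780 in COMB. It was likewise highest in the OAT-1746 pair, the sets did not overlap, and the difference was -1.74 ± 0.35. Egr3, an immediate early transcription factor, was at 13.9 and 8.88 CPM in CTR, 12.8 and 42.2 in OAT-1746, 3.69 and 7.72 in anti-PD-1 and 3.19, 2.71 and 3.97 in COMB. The antibody-treated libraries were below the others, and OAT-1746 replicate 2 was 42.2 CPM. Its difference of -2.14 was -1.42 without that library. The other 7 were mt-Nd2, the mitochondrial tRNA methyltransferase gene Nsun3, the RNA-binding protein gene Mex3b, the zinc finger genes Zfp994 and Zfp991, AW549877 and Lipo3, with differences between -1.24 and -0.63. The sets overlapped for mt-Nd2, Mex3b and AW549877.

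**Figure D1:**
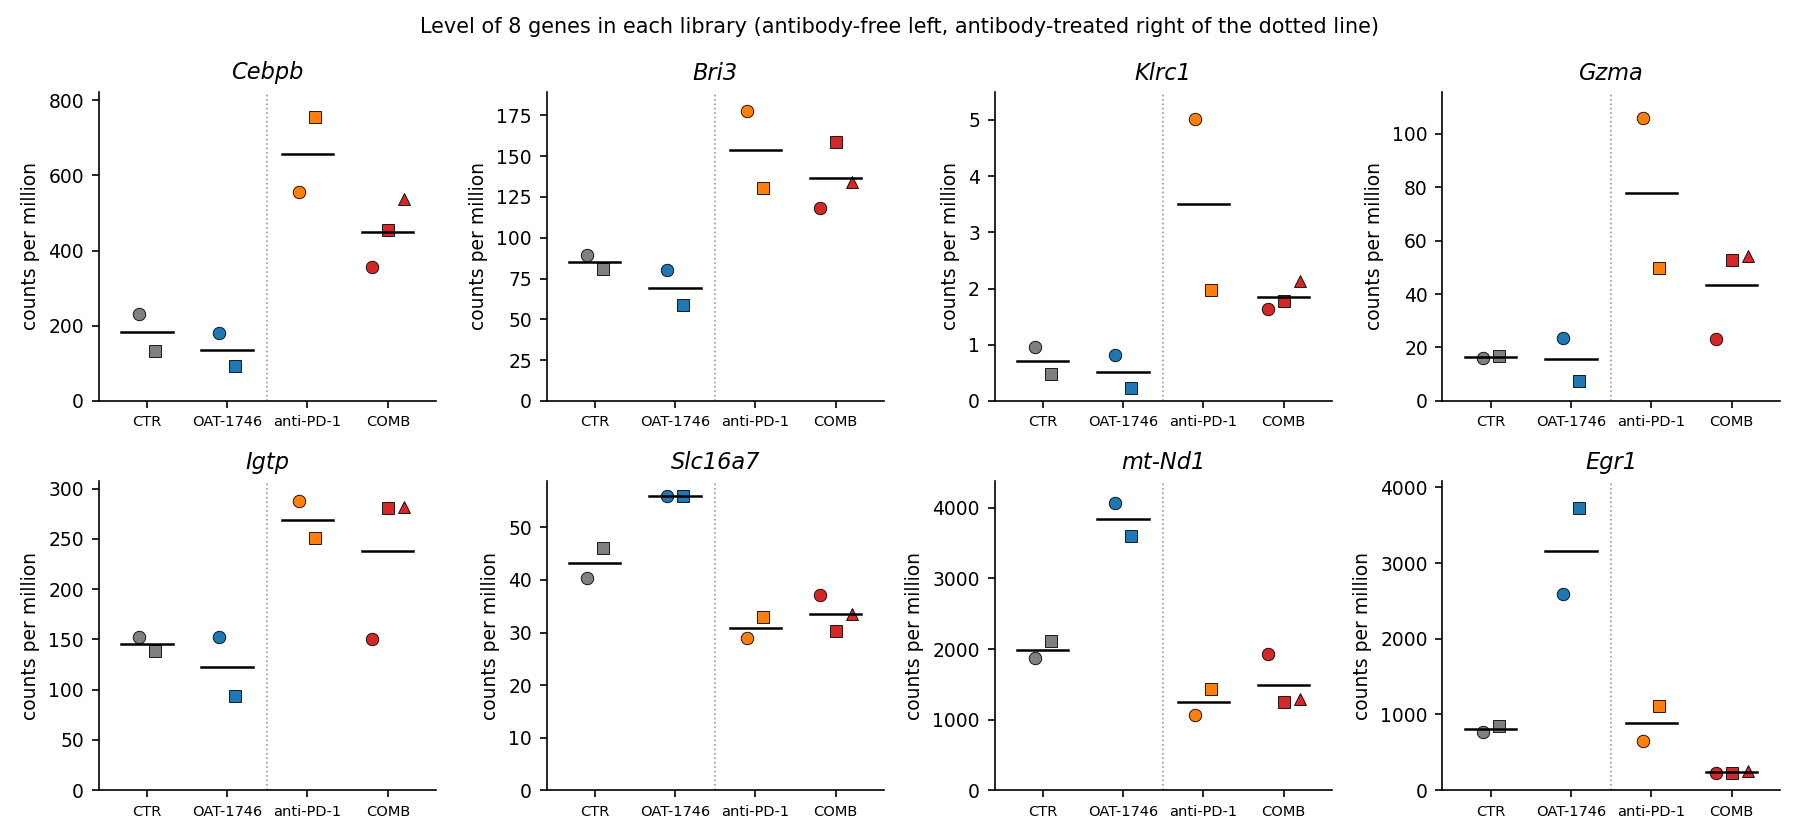
Level of 8 genes in each of the 9 libraries, in CPM on a linear axis, with a symbol per replicate (circle 1, square 2, triangle 3) and a line at the group mean. Antibody-treated libraries stand right of the dotted line, and those of Cebpb, at 357 to 756 CPM, lie above all antibody-free libraries.

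NK receptor genes and cytotoxic effector genes had the highest medians of the 28 gene lists examined in the main comparison. T cell genes lay above NK receptors with the length and GC correction (1.02 against 0.92) and without COMB replicate 2 (1.26 against 1.23). Of 27 listed receptors, 22 were tested and 22 had a log2 difference above 0, the smallest being 0.00 for Cd226. Low members such as Klrc2 and Klrb1f passed the minimum-count filter through antibody-treated libraries alone. Their direction was thus given on entry, and the tally of signs is no test. The median of the list, its rank and the counts that follow include these members and are no test either. Before adjustment there were 12 higher and 0 lower at p under 0.05, beside 6.3% and 5.35% of all tested genes. DESeq2 called 5 higher (0.573% of all), and 5 had sets that did not overlap (1.67% of all), while edgeR called 0. The count before adjustment was between 10 and 16 with a library left out. The median log2 difference was 1.25, beside 0.00 over all tested genes. It was 1.73 for anti-PD-1 against CTR and 0.96 for COMB against OAT-1746. The former was 1.12 without anti-PD-1 replicate 1, and the latter 1.80 without OAT-1746 replicate 1 and 0.44 without OAT-1746 replicate 2. Leaving out a library moved the main median to between 1.00 (anti-PD-1 replicate 1) and 1.53 (OAT-1746 replicate 1). The main median was 1.21 without OAT-1746 replicate 2 and 0.92 with the length and GC correction. Receptors of the Klra family are close paralogs on chromosome 6, so reads could be split among them and their single values are uncertain. In bulk RNA, more NK cells and more RNA per NK cell cannot be told apart.

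Klrc1 encodes the inhibitory receptor NKG2A and was at 0.961 and 0.471 CPM in CTR, 0.815 and 0.229 in OAT-1746, 5.02 and 1.97 in anti-PD-1 and 1.63, 1.78 and 2.13 in COMB. All antibody-treated libraries were above the rest, and anti-PD-1 replicate 1 stood highest. The difference was 2.04 ± 0.45 (edgeR adjusted p = 0.417, DESeq2 adjusted p = 0.00657). Klrc2, its activating counterpart NKG2C, had 0 and 0 reads in CTR, 1 and 1 in OAT-1746, 33 and 9 in anti-PD-1 and 12, 12 and 14 in COMB. The antibody-free libraries were close to empty for this gene and none of the antibody-treated ones was. In reads per library size the antibody-treated set was 36.5 times the other, with an exact 95% counting interval of 9.78 to 307 that covers counting error only. Against the 0 reads of CTR, anti-PD-1 was at least 14.7-fold higher, taking 3 reads over the group as the floor. Anti-PD-1 replicate 1 held most of the anti-PD-1 reads, and the bound was 5.69-fold without it, 25.8-fold without anti-PD-1 replicate 2, 7.42-fold without CTR replicate 1 and 7.26-fold without CTR replicate 2. COMB was 15.4 times OAT-1746 (interval 3.98 to 132). With 1 read left in that group, the intervals widened to 9.53 to 2185 and 2.63 to 629.6 without OAT-1746 replicate 1, and to 9.48 to 2173 and 2.58 to 619 without OAT-1746 replicate 2.

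Klra4, a Ly49 receptor, was at 1.201 and 0.706 CPM in CTR, 0.989 and 0.229 in OAT-1746, 6.69 and 2.82 in anti-PD-1 and 1.34, 2.77 and 2.34 in COMB. Its sets did not overlap and anti-PD-1 replicate 1 was again highest. Klrg1, a receptor of mature NK and effector T cells, was at 0.721 and 0.412 CPM in CTR, 0.349 and 0.229 in OAT-1746, 1.46 and 1.24 in anti-PD-1 and 0.890, 1.52 and 0.922 in COMB. These low levels, 29 reads in the antibody-free set and 91 in the other, did not overlap between sets. Klrb1c, which encodes NK1.1, was at 3.06 and 3.18 CPM in CTR, 3.08 and 0.858 in OAT-1746, 13.4 and 7.27 in anti-PD-1 and 3.12, 3.96 and 4.82 in COMB. COMB replicate 1 lay within the CTR range, so the sets overlapped. Klrb1f was at 0.180 and 0.235 CPM in CTR, 0.466 and 0.515 in OAT-1746, 2.93 and 1.97 in anti-PD-1 and 0.593, 0.792 and 0.425 in COMB. The anti-PD-1 pair stood above all others, while COMB and OAT-1746 overlapped, with log2 differences of 3.50 and 0.30 in turn. Ncr1, the NK activating receptor NKp46, was at 2.16 and 1.59 CPM in CTR, 2.85 and 1.03 in OAT-1746, 8.57 and 4.90 in anti-PD-1 and 1.34, 2.44 and 2.48 in COMB. Again the anti-PD-1 pair was highest and COMB overlapped the antibody-free libraries. Klrk1, the activating receptor NKG2D and the most abundant of the list, was at 31.8 and 43.9 CPM in CTR, 38.8 and 6.29 in OAT-1746, 65.1 and 58.3 in anti-PD-1 and 29.7, 42.9 and 43.6 in COMB. Except for the low OAT-1746 replicate 2 and the high anti-PD-1 pair, the libraries overlapped.

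The libraries were uneven. The 22 receptors summed to 122 and 126 CPM in CTR, 91.5 and 26.7 in OAT-1746, 219 and 163 in anti-PD-1 and 96.7, 139 and 142 in COMB. COMB replicate 1 was thus below both CTR libraries, and OAT-1746 replicate 2 was below all. Of the 22 receptors, 18 were highest in anti-PD-1 replicate 1 and 13 were lowest in OAT-1746 replicate 2. Within the antibody-treated set, COMB replicate 1 was lowest for 16.

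Of 18 listed cytotoxic effector genes, 13 were tested and 13 were above 0. At an unadjusted p under 0.05 there were 7, beside 6.3% of all tested genes. DESeq2 called 3 (0.573% of all) and edgeR 0, and for 0 did all antibody-treated libraries lie above all others. They summed to 794 and 847 CPM in CTR, 809 and 366 in OAT-1746, 1293 and 914 in anti-PD-1 and 709.9, 1270.3 and 1245 in COMB. The most abundant of them was Srgn, a granule proteoglycan that myeloid cells express too, at 546 and 635 CPM in CTR, 535 and 178 in OAT-1746, 704 and 538 in anti-PD-1 and 453, 727 and 683 in COMB, and the sets overlapped. The median log2 difference was 1.25, with 1.28 for anti-PD-1 against CTR and 0.98 for COMB against OAT-1746. For anti-PD-1 against CTR it became 1.95 without CTR replicate 2 and 0.57 without anti-PD-1 replicate 1, and for COMB against OAT-1746 1.97 without OAT-1746 replicate 1, 0.55 without OAT-1746 replicate 2 and 0.55 with the length and GC correction. The main median was 0.84 without anti-PD-1 replicate 1 and 1.26 without OAT-1746 replicate 2. Gzma, a granzyme, was at 16.0 and 16.6 CPM in CTR, 23.7 and 7.61 in OAT-1746, 106 and 49.9 in anti-PD-1 and 23.3, 52.8 and 54.1 in COMB. The antibody-treated libraries were higher except COMB replicate 1, which fell within the OAT-1746 range. The difference was 1.82 ± 0.40 (edgeR adjusted p = 0.417, DESeq2 adjusted p = 0.00402). Prf1, the pore-forming protein perforin, was at 8.29 and 5.23 CPM in CTR, 10.01 and 2.75 in OAT-1746, 45.5 and 25.9 in anti-PD-1 and 7.49, 19.3 and 23.04 in COMB. COMB replicate 1 again overlapped the antibody-free libraries, and the other 4 treated libraries did not. Nkg7, a protein of cytotoxic granules, was at 3.24 and 2.65 CPM in CTR, 5.76 and 1.72 in OAT-1746, 19.02 and 11.8 in anti-PD-1 and 4.67, 9.63 and 10.7 in COMB and showed the same order. Gzmb was at 12.3 and 9.12 CPM in CTR, 22.9 and 3.61 in OAT-1746, 59.2 and 36.1 in anti-PD-1 and 13.1, 36.1 and 39.5 in COMB. COMB replicate 1 lay below OAT-1746 replicate 1 there as well. Granzyme genes are paralogs, and Gzmd and Gzme had 0 reads in all libraries. Ifng, the interferon gamma gene, held 9 reads in the antibody-free set and 44 in the other. Its library counts were 4 and 3 in CTR, 1 and 1 in OAT-1746, 12 and 4 in anti-PD-1 and 6, 12 and 10 in COMB, and anti-PD-1 replicate 2 lay within the CTR range of CPM. Ifng passed the minimum-count filter through antibody-treated libraries alone, so its direction was given on entry and the tally of signs is no test. The median and the counts of this list include it.

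**Figure D2:**
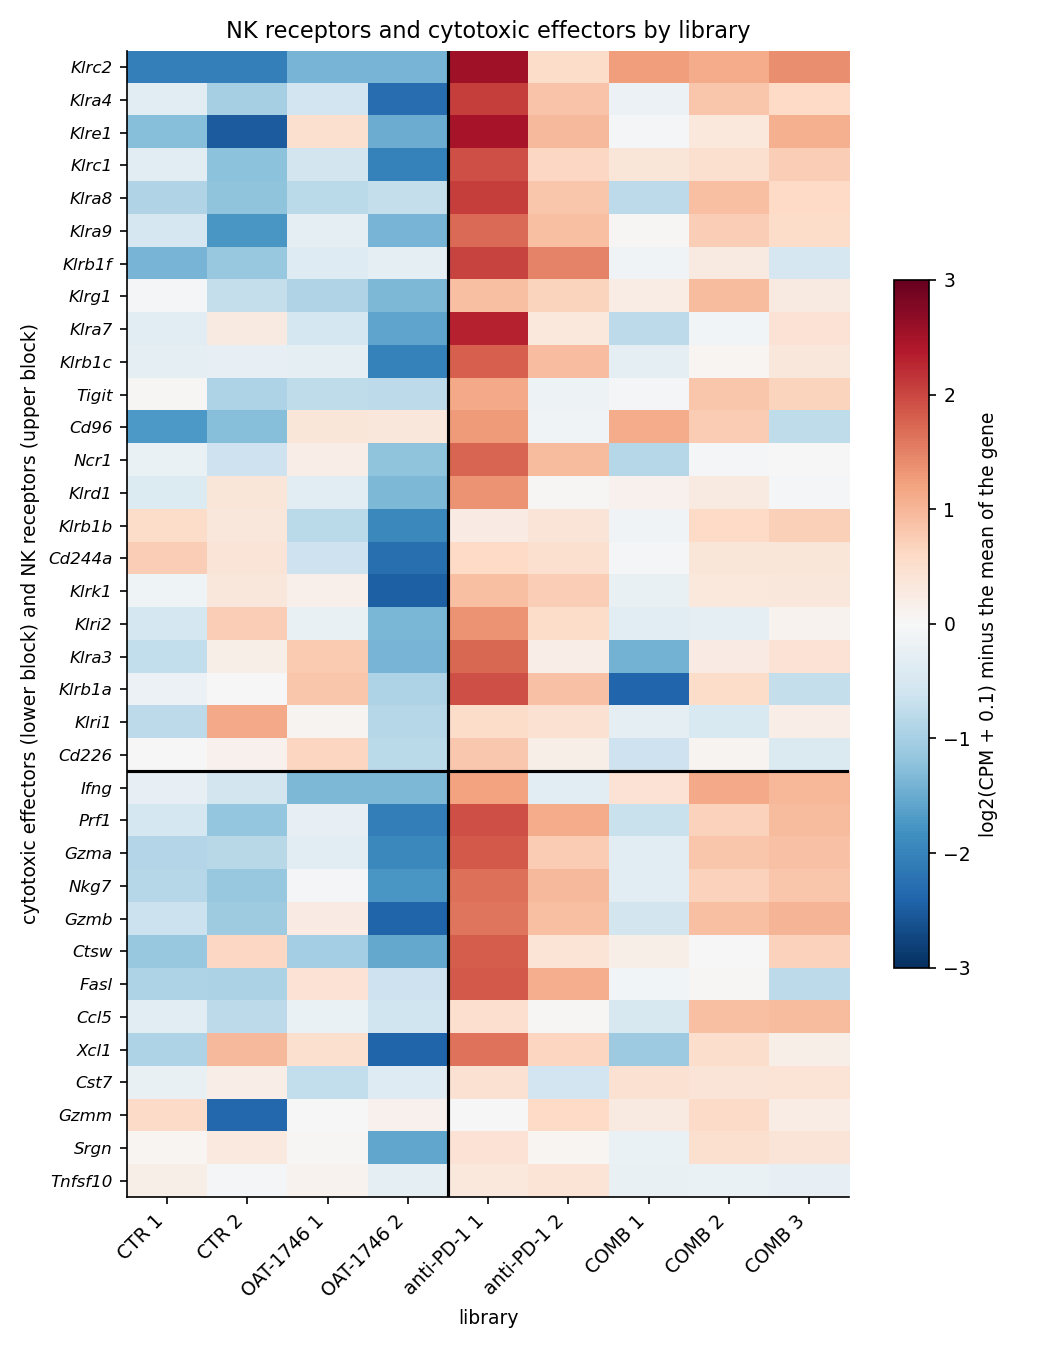
Heat map of 22 NK receptors (upper block) and 13 cytotoxic effectors (lower block) in the 9 libraries, as log2(CPM + 0.1) minus the mean of each gene, red above and blue below it. Antibody-treated libraries stand right of the vertical line, where anti-PD-1 replicate 1 is highest for 18 of the receptors.

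Genes of NK transcription and signalling had a median of 0.47 over 22 tested members. At an unadjusted p under 0.05, 8 were higher and 0 lower, beside 6.3% and 5.35% of all tested genes, and DESeq2 called 1. The 8 became 3 without CTR replicate 2, 5 without OAT-1746 replicate 2 and 5 without anti-PD-1 replicate 1, and the median was 0.27 with the length and GC correction. The gene called, Il18r1, encodes a chain of the interleukin 18 receptor and was at 0.420 and 0.118 CPM in CTR, 0.175 and 0.172 in OAT-1746, 3.48 and 0.676 in anti-PD-1 and 1.11, 0.462 and 1.35 in COMB. Its sets did not overlap, and anti-PD-1 replicate 1 was far above the rest. Il18r1 passed the minimum-count filter through antibody-treated libraries alone, so its direction was given on entry. Il2rb, the shared chain of the interleukin 2 and 15 receptors, was at 10.3 and 10.7 CPM in CTR, 17.9 and 5.84 in OAT-1746, 61.9 and 32.6 in anti-PD-1 and 14.6, 20.4 and 25.03 in COMB. COMB replicate 1 lay below OAT-1746 replicate 1, so the sets overlapped, and the difference was 1.39 ± 0.40. Serpins of a list drawn up for granzyme inhibitors, which also holds Serpina3g and Serpinb1a, had 3 of 6 tested members higher at that threshold. The share over all tested genes was 6.3%. These serpins had a median of 0.67, but Serpinb6 and Serpinb9 are families of close paralogs and 6 further members had 0 reads. Their count was 1 without CTR replicate 2, 1 without COMB replicate 3, 1 without anti-PD-1 replicate 2 and 1 with the length and GC correction. Serpinb6b was at 4.87 and 5.23 CPM in CTR, 9.08 and 4.81 in OAT-1746, 15.7 and 11.7 in anti-PD-1 and 9.64, 11.6 and 12.8 in COMB. Every antibody-treated library was above the others, with the narrowest gap between OAT-1746 replicate 1 and COMB replicate 1.

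Of 28 listed T cell genes, 21 were tested, 18 were above 0 and 3 below. At an unadjusted p under 0.05 there were 9, all higher, beside 6.3% of all tested genes. Sets did not overlap for 6, beside 1.67% of all, while edgeR and DESeq2 each called 0. The number tested was 19 without COMB replicate 1 and 20 without COMB replicate 3. Some low members thus passed the minimum-count filter by way of antibody-treated libraries, so these tallies are no test. The median was 1.14, and 0.55 without anti-PD-1 replicate 1. The count at that threshold was 5 without anti-PD-1 replicate 1. Their summed level was 55.3 and 64.3 CPM in CTR, 83.9 and 83.9 in OAT-1746, 101 and 77.5 in anti-PD-1 and 82.5, 95.4 and 111 in COMB, so that anti-PD-1 replicate 2 and COMB replicate 1 lay below the OAT-1746 pair. The list's most abundant gene was Il7r, the interleukin 7 receptor. The members with the smallest p, Cd247, Zap70, Cd2, Thy1 and Lck, are expressed by NK cells as well. Lck, a kinase of T and NK cells, was at 1.80 and 1.59 CPM in CTR, 3.73 and 0.858 in OAT-1746, 11.5 and 5.64 in anti-PD-1 and 2.596, 3.83 and 5.39 in COMB. The anti-PD-1 pair and COMB replicates 2 and 3 were above all antibody-free libraries, and COMB replicate 1 was not. Cd8a, which marks cytotoxic T cells, was at 0.240 and 0.588 CPM in CTR, 0.524 and 0.401 in OAT-1746, 1.11 and 0.394 in anti-PD-1 and 0.964, 0.198 and 0.567 in COMB. Anti-PD-1 replicate 1 and COMB replicate 1 were above all antibody-free libraries, and the other treated libraries were not. Its log2 difference was 0.54. Other members rose more, at means of 0.35 to 0.62 CPM: Cd8b1 by 2.20, Cd6 by 1.46, Cd3d by 1.41 and Cd3g by 0.97. The 3 members below 0 were Cd4 (-0.41), Bcl11b (-0.56) and Cd28 (-0.00). The paper names NK cells, but not T cells, among the cells of its CD11b sort. How far T cells contribute to the NK receptor and effector genes was not tested. B cell genes had 0 of 7 tested members under the unadjusted threshold, 0 called by edgeR or DESeq2, and a median of 0.25 that was -0.13 with at least 10 counts in every library, 0.07 without OAT-1746 replicate 1, -0.05 without OAT-1746 replicate 2, 0.02 without COMB replicate 1, -0.09 without COMB replicate 3, -0.01 without anti-PD-1 replicate 1 and 0.04 with the length and GC correction.

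Genes induced by interferon gamma, chiefly GTPases and chemokines, had a median of 0.59 over 26 tested members. Of these, 24 were above 0 and 7 were higher at an unadjusted p under 0.05, beside 6.3% of all tested genes. DESeq2 called 2 and edgeR 0. The list's median was 0.37 for anti-PD-1 against CTR (-0.03 without anti-PD-1 replicate 2 and 0.57 without CTR replicate 1). For COMB against OAT-1746 it was 0.92 (0.38 without OAT-1746 replicate 2 and 1.76 without OAT-1746 replicate 1). Igtp, a GTPase that guards against intracellular pathogens, was at 153 and 138 CPM in CTR, 152 and 93.3 in OAT-1746, 288 and 250.4 in anti-PD-1 and 149.97, 280.3 and 282 in COMB. COMB replicate 1 lay among the antibody-free libraries, and the other 4 treated libraries were all above them. The difference was 0.92 ± 0.22 (edgeR adjusted p = 0.417, DESeq2 adjusted p = 0.0164), nearly equal without OAT-1746 (0.89) and with it (0.95). Socs1, a feedback inhibitor of cytokine signalling, was at 34.1 and 18.6 CPM in CTR, 17.4 and 12.1 in OAT-1746, 62.4 and 49.3 in anti-PD-1 and 18.4, 51.3 and 49.3 in COMB. It showed the same order, with COMB replicate 1 within the antibody-free range. The list's median was 0.32 without OAT-1746 replicate 2 and 0.38 without COMB replicate 3, and its count at the unadjusted threshold was 3 without CTR replicate 2, 11 without OAT-1746 replicate 1, 4 without COMB replicate 2, 3 without COMB replicate 3 and 4 without anti-PD-1 replicate 2. Type I interferon genes had 27 of 28 tested members above 0 and a median of 0.44, but 0 under the unadjusted threshold and 0 called by edgeR or DESeq2. They summed to 5236 and 6099 CPM in CTR, 5733 and 1376 in OAT-1746, 8159 and 8254 in anti-PD-1 and 4376, 4492 and 4620.4 in COMB, with the anti-PD-1 pair highest and OAT-1746 replicate 2 lowest. Their median was 1.09 without OAT-1746 replicate 1 and 0.15 without OAT-1746 replicate 2, and the count at the unadjusted threshold was 26 without OAT-1746 replicate 1. Ifit members of that list are paralogs.

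Promoters of some of these genes are shown for letters that transcription factors of the named pathways are known to read, as RefSeq gives them for GRCm38.p6, 250 bases before to 50 after the start. Capitals mark the matches. A match describes the letters and not a bound site. For Cebpb (chr2:167688665-167688964, plus strand) and Nr4a1 (chr15:101266596-101266895, plus strand) the capitals are TGACG, the short form of the letters read by CREB and ATF factors, or its reverse complement, which 20.8% of 32851 promoters hold. For Nkg7 (chr7:43436888-43437187, plus strand) they are TTCNNNGAA, read by STAT factors (8.30% of promoters), AGGTGTGA, read by T-box factors (1.28%), and TGTGGT, read by RUNX factors (16.8%). For Igtp (chr11:58199306-58199605, plus strand) they are the STAT letters and GAAA, any 2 letters and GAAA, read by interferon regulatory factors (3.44%). Letters were searched on both strands.
Cebpb: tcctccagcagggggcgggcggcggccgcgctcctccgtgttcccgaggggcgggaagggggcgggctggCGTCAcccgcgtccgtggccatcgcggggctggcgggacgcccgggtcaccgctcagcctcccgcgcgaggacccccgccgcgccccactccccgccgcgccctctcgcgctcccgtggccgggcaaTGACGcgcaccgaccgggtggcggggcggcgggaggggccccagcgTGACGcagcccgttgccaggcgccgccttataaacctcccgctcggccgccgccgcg
Nkg7: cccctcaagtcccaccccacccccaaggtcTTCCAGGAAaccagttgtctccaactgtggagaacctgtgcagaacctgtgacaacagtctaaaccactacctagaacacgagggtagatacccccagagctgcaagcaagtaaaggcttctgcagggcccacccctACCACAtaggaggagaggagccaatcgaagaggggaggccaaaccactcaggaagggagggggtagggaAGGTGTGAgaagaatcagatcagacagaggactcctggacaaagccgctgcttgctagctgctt
Igtp: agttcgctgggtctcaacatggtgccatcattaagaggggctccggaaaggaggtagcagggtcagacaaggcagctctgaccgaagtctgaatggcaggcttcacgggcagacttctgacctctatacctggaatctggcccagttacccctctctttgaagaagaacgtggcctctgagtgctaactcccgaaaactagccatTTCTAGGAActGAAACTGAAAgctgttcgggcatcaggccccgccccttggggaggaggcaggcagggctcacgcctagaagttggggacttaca
Nr4a1: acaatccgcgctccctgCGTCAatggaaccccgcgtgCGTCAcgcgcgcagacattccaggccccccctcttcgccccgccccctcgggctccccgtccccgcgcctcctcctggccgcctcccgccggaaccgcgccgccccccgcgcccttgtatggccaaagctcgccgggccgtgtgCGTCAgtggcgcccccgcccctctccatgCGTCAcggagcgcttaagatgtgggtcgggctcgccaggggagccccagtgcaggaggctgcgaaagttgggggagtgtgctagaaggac

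Counted over lists with the first listed promoter of each gene, 12 of the 16 interferon gamma induced genes with a promoter in the table held the letters of interferon regulatory factors and 8 held TTCNNNGAA. Of 18 NK receptor promoters, 9 held TGTGGT and 0 held the letters of interferon regulatory factors. TGTGGT was also in 6 of 13 promoters of microglial genes and 3 of 16 of NK transcription and signalling genes, beside 16.8% of all promoters. Of 11 cytotoxic effector promoters, 7 held TGTGGT and 4 held TTCNNNGAA.

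Genes of PD-1 and other checkpoints did not lean as a list. Of 21 tested members 11 were above 0, with a median of 0.04 that was -0.02 with at least 10 counts in every library, -0.04 by limma voom, 0.01 without CTR replicate 1, 0.08 without CTR replicate 2, 0.12 without OAT-1746 replicate 1, 0.02 without OAT-1746 replicate 2, 0.01 without COMB replicate 1, 0.07 without anti-PD-1 replicate 2 and -0.15 with the length and GC correction. At an unadjusted p under 0.05 there were 3 higher (6 without anti-PD-1 replicate 1) and 1 lower (3 without CTR replicate 1, 2 without CTR replicate 2, 0 without OAT-1746 replicate 1, 0 without OAT-1746 replicate 2, 0 without COMB replicate 2, 0 without COMB replicate 3, 3 without anti-PD-1 replicate 1 and 2 with the length and GC correction), with 0 called by edgeR and 1 by DESeq2. Over all tested genes 6.3% were higher and 5.35% lower at that threshold. Pdcd1, the gene of PD-1 itself, was at 4.75 and 8.88 CPM in CTR, 7.16 and 3.20 in OAT-1746, 12.4 and 6.14 in anti-PD-1 and 6.60, 2.77 and 2.41 in COMB. Anti-PD-1 replicate 2 and COMB replicate 1 lay inside the antibody-free range, anti-PD-1 replicate 1 above it and COMB replicates 2 and 3 below it. The difference was -0.01 ± 0.40. Cd274, the gene of PD-L1, was at 227 and 144 CPM in CTR, 159.5 and 70.4 in OAT-1746, 126 and 278 in anti-PD-1 and 125, 260.0 and 280.2 in COMB. COMB replicate 1 and anti-PD-1 replicate 1 lay inside the antibody-free range, and the difference was 0.57 ± 0.38 (edgeR adjusted p = 0.494, DESeq2 adjusted p = 0.442). Pdcd1lg2, the gene of PD-L2, was at 13.1 and 6.65 CPM in CTR, 3.38 and 1.72 in OAT-1746, 7.60 and 11.1 in anti-PD-1 and 6.53, 42.8 and 40.8 in COMB. COMB replicates 2 and 3 stood above every other library, whereas the anti-PD-1 pair lay within the CTR range and COMB replicate 1 just below it. Tnfrsf9, the costimulatory receptor 4-1BB of activated T and NK cells, was at 1.62 and 2.24 CPM in CTR, 1.22 and 0.172 in OAT-1746, 5.50 and 3.04 in anti-PD-1 and 4.30, 6.67 and 9.71 in COMB. Its sets did not overlap, and the difference was 2.20 ± 0.59 (edgeR adjusted p = 0.417, DESeq2 adjusted p = 0.0144).

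Arginine metabolism is the target of OAT-1746. Nos2, the inducible nitric oxide synthase that uses arginine, was at 16.9 and 19.5 CPM in CTR, 28.9 and 16.5 in OAT-1746, 16.0 and 70.9 in anti-PD-1 and 22.99, 184 and 210.2 in COMB. COMB replicates 2 and 3 and anti-PD-1 replicate 2 were high, COMB replicate 1 lay inside the antibody-free range and anti-PD-1 replicate 1 just below it. Srm, the spermidine synthase of polyamine production, was at 35.1 and 34.1 CPM in CTR, 23.1 and 24.4 in OAT-1746, 41.9 and 44.7 in anti-PD-1 and 39.2, 35.4 and 38.1 in COMB. Here the sets did not overlap, by a small margin, and the difference was 0.50 ± 0.11 (edgeR adjusted p = 0.417, DESeq2 adjusted p = 0.0107). Over 17 tested genes of this list the median was 0.21 (0.31 without CTR replicate 2, 0.31 without OAT-1746 replicate 1 and 0.38 without anti-PD-1 replicate 1). Of the 17, 3 had an unadjusted p under 0.05, all higher, beside 6.3% of all tested genes. That count was 5 without CTR replicate 1 and 1 with the length and GC correction, and edgeR called 0 and DESeq2 1.

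Genes of infiltrating monocytes and macrophages had 24 of 25 tested members above 0, 1 called by DESeq2 and 0 by edgeR. At an unadjusted p under 0.05, 6 were higher, beside 6.3% of all tested genes. The median was 0.71, but 0.34 without OAT-1746 replicate 2 and 1.23 without OAT-1746 replicate 1, and the count at that threshold was 13 without the latter. The median was 0.48 for anti-PD-1 against CTR (0.75 without CTR replicate 2) and 0.89 for COMB against OAT-1746 (2.49 without OAT-1746 replicate 1, 0.32 without OAT-1746 replicate 2 and 0.57 with the length and GC correction). Their summed level was 11643 and 11241 CPM in CTR, 8792 and 1581 in OAT-1746, 12357 and 13418 in anti-PD-1 and 8608, 13053 and 13452 in COMB. OAT-1746 replicate 2 held far less of them than any other library and was lowest for 22 of the 25 genes. Vim, the filament protein vimentin, was at 993 and 962 CPM in CTR, 760.0 and 212 in OAT-1746, 1745 and 1390.0 in anti-PD-1 and 904, 1376 and 1419 in COMB. The sets overlapped, since COMB replicate 1 lay below CTR. S100a4, a calcium-binding protein of migrating monocytes, was at 0.901 and 1.12 CPM in CTR, 0.116 and 0 in OAT-1746, 3.21 and 1.86 in anti-PD-1 and 1.19, 1.72 and 1.35 in COMB. Its sets did not overlap, with only 36 reads in the antibody-free set. Microglial genes had 19 of 20 tested members below 0 and 3 lower at that threshold, beside 5.35% of all tested genes. Their median was -0.32, with 0.04 for anti-PD-1 against CTR and -0.70 for COMB against OAT-1746. The anti-PD-1 median was -0.22 without CTR replicate 1, 0.44 without CTR replicate 2, 0.02 without COMB replicate 1, 0.02 without COMB replicate 3, -0.04 without anti-PD-1 replicate 1, 0.14 without anti-PD-1 replicate 2 and -0.03 with the length and GC correction, and the main median -0.49 without CTR replicate 1 and -0.17 without OAT-1746 replicate 2. P2ry12, a purine receptor of resting microglia, was at 1376 and 2309 CPM in CTR, 3488 and 4726 in OAT-1746, 1802 and 1534 in anti-PD-1 and 2539, 1698 and 1612 in COMB. The OAT-1746 pair was highest, and the other groups overlapped. For the antibody effect edgeR and DESeq2 called 0 of the 20 microglial genes, and the unadjusted count was 9 without CTR replicate 1, 0 without CTR replicate 2, 0 without OAT-1746 replicate 1, 0 without OAT-1746 replicate 2, 0 without COMB replicate 2, 0 without COMB replicate 3, 6 without anti-PD-1 replicate 1 and 7 with the length and GC correction.

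Border-associated macrophage genes had a median of -0.11 over 15 tested members (-0.25 without CTR replicate 1, -0.04 without CTR replicate 2, -0.01 without OAT-1746 replicate 1, -0.06 without OAT-1746 replicate 2, -0.07 without COMB replicate 3, -0.25 without anti-PD-1 replicate 1, -0.02 without anti-PD-1 replicate 2 and -0.30 with the length and GC correction). Neutrophil genes had -0.22 over 15 (0.10 by limma voom, -0.47 without CTR replicate 1, 0.18 without CTR replicate 2, -0.36 without OAT-1746 replicate 1, 0.06 without OAT-1746 replicate 2 and -0.47 with the length and GC correction). Dendritic cell genes had 0.13 over 18 (0.25 without CTR replicate 2, 0.23 without OAT-1746 replicate 1 and 0.30 without anti-PD-1 replicate 2), and the antigen-presentation genes of MHC class I 0.34 over 23 (0.21 with the length and GC correction). MHC class II genes had 0.39 over 12 (0.67 without CTR replicate 1, 0.23 without OAT-1746 replicate 1, 0.18 without OAT-1746 replicate 2, 0.60 without anti-PD-1 replicate 1 and 0.22 with the length and GC correction), with 0 under the unadjusted threshold and 0 called by edgeR or DESeq2. The unadjusted count was 5 without CTR replicate 1 and 2 without anti-PD-1 replicate 1. Their median was -0.31 for anti-PD-1 against CTR (-0.02 without CTR replicate 1 and -0.54 without CTR replicate 2) and 0.94 for COMB against OAT-1746. Cd74, the class II invariant chain, was at 13815 and 7615 CPM in CTR, 4426 and 3999 in OAT-1746, 6278 and 8991 in anti-PD-1 and 6138, 11748 and 12277 in COMB. CTR replicate 1 was the highest library and the OAT-1746 pair the lowest, and the sets overlapped. Chemokine genes had 4 of 22 higher and 2 lower at an unadjusted p under 0.05, beside 6.3% and 5.35% of all tested genes. Calls by edgeR or DESeq2 were 0. Their median was 0.41, which was 0.17 without OAT-1746 replicate 2 and 0.05 with the length and GC correction. The higher count was 1 with the length and GC correction. The monocyte chemoattractant Ccl7 was at 79.5 and 67.2 CPM in CTR, 29.7 and 12.99 in OAT-1746, 76.3 and 122 in anti-PD-1 and 52.1, 78.3 and 64.7 in COMB. The OAT-1746 pair was lowest, and CTR overlapped the treated libraries. Ccl3, which attracts macrophages and NK cells, was at 101 and 62.8 CPM in CTR, 79.5 and 189 in OAT-1746, 70.6 and 88.1 in anti-PD-1 and 31.7, 24.6 and 27.9 in COMB. COMB was the lowest group, while anti-PD-1 overlapped CTR.

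S phase genes had a median of 0.29 over 35 tested members and genes of G2 and mitosis 0.09 over 34. Both medians were below 0 for anti-PD-1 against CTR (-0.39 and -0.73) and above it for COMB against OAT-1746 (0.88 and 0.89). For COMB against OAT-1746 the S phase median was 1.48 without OAT-1746 replicate 1 and 0.44 without OAT-1746 replicate 2, and the median of G2 and mitosis 2.15 without OAT-1746 replicate 1 and 0.29 without OAT-1746 replicate 2. For anti-PD-1 against CTR the S phase median was -0.14 without anti-PD-1 replicate 1 and -0.65 without anti-PD-1 replicate 2. The main median of S phase genes was -0.06 without OAT-1746 replicate 2 and 0.49 without anti-PD-1 replicate 1, and that of G2 and mitosis genes -0.08 by limma voom, -0.05 with no OAT-1746 term, 0.22 without CTR replicate 1, 0.28 without CTR replicate 2, 0.15 without OAT-1746 replicate 1, -0.34 without OAT-1746 replicate 2, 0.00 without COMB replicate 2, 0.04 without COMB replicate 3, 0.33 without anti-PD-1 replicate 1 and 0.23 without anti-PD-1 replicate 2. Astrocyte, oligodendrocyte and glioma genes summed to between 377 and 612 CPM (median 0.03, -0.07 without CTR replicate 1, 0.22 without CTR replicate 2, -0.09 without OAT-1746 replicate 1, 0.14 without OAT-1746 replicate 2, -0.17 without COMB replicate 1, 0.22 without COMB replicate 2, 0.09 without COMB replicate 3, -0.02 without anti-PD-1 replicate 1 and 0.17 without anti-PD-1 replicate 2), endothelial and pericyte genes to between 144 and 229 CPM (median 0.12, -0.01 without CTR replicate 2, 0.08 without OAT-1746 replicate 1, 0.22 without OAT-1746 replicate 2, 0.03 without COMB replicate 1, 0.24 without COMB replicate 2 and 0.05 without anti-PD-1 replicate 1), and erythroid and platelet genes to between 8.23 and 44.2 CPM (median -0.14, 0.54 by limma voom, -0.39 without CTR replicate 1, -0.50 without OAT-1746 replicate 1, 0.97 without OAT-1746 replicate 2, -0.06 without COMB replicate 2, -1.25 without anti-PD-1 replicate 1, 0.14 without anti-PD-1 replicate 2 and -0.70 with the length and GC correction).

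**Figure D3:**
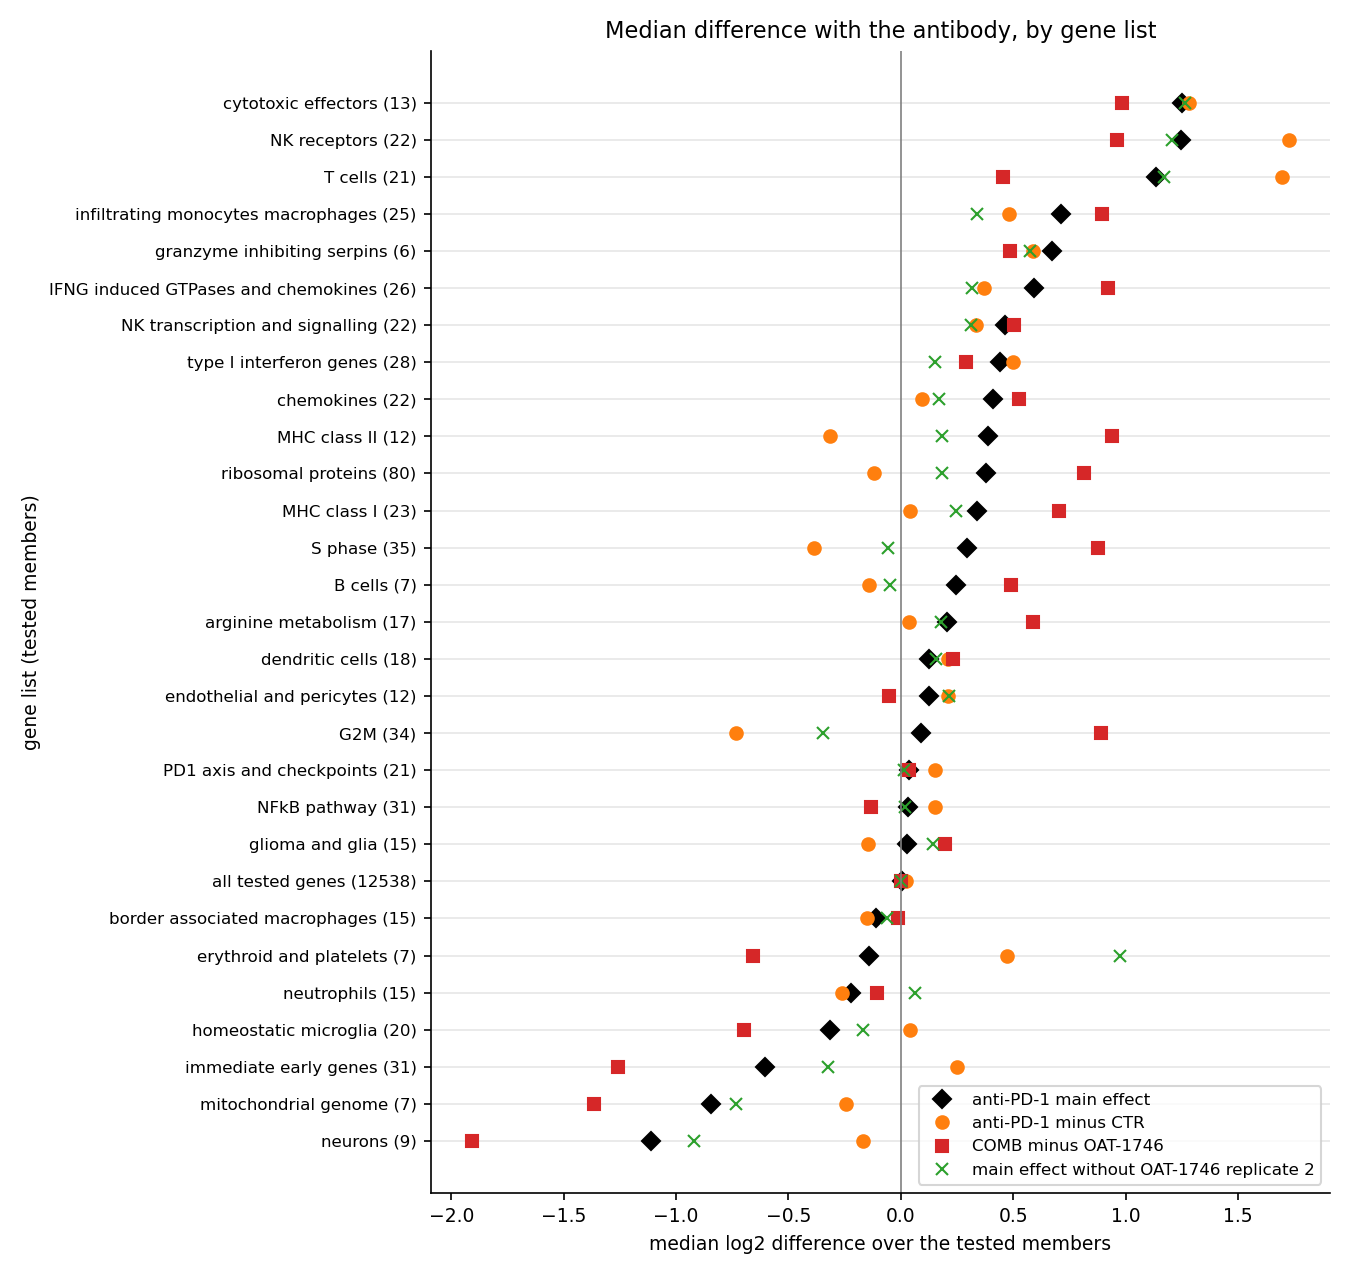
Median log2 difference of 28 gene lists and of all 12538 tested genes (horizontal axis), for the main antibody effect, for anti-PD-1 minus CTR, for COMB minus OAT-1746, and for the main effect without OAT-1746 replicate 2. NK receptors and cytotoxic effectors have the highest main medians, both 1.25, and neuronal genes the lowest at -1.11. Both top lists include genes that passed the minimum-count filter through antibody-treated libraries alone.

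The antibody was given in 2 settings that share no library, without OAT-1746 (anti-PD-1 against CTR) and with it (COMB against OAT-1746). For anti-PD-1 against CTR, edgeR called 0 genes (0%), with adjusted p values from 0.951 upward. Before adjustment 399 were higher (3.18%) and 243 lower (1.94%) at p under 0.05, and DESeq2 called 14 of 12294 genes higher (0.114%) and 0 lower. For COMB against OAT-1746, edgeR called 858 higher (6.84%) and 1121 lower (8.94%), and DESeq2 1651 and 1411. Those edgeR counts were 1 and 26 without OAT-1746 replicate 2, 2330 and 1703 without OAT-1746 replicate 1, 1300 and 1623 without COMB replicate 1, 1 and 13 without COMB replicate 2, and 0 and 5 without COMB replicate 3. Leaving out a library of the other groups gave 259 and 475 without CTR replicate 1, 253 and 555 without CTR replicate 2, 282 and 579 without anti-PD-1 replicate 1, and 307 and 620 without anti-PD-1 replicate 2. A fit of only the COMB and OAT-1746 libraries called 2 and 28.

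Across the 12538 genes, the log2 differences of these comparisons had the same sign for 5357 (42.7%), with a Pearson's r of -0.0740 and a Spearman's rho of -0.174 across genes, which are not independent. Over all tested genes the median absolute log2 difference was 0.19 without OAT-1746 and 0.43 with it. The 790 genes higher in the joint fit of the same libraries at an unadjusted p under 0.05 had a median of 0.30 without OAT-1746 and 0.86 with it, and the 671 lower genes -0.18 and -0.72.

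**Figure D4:**
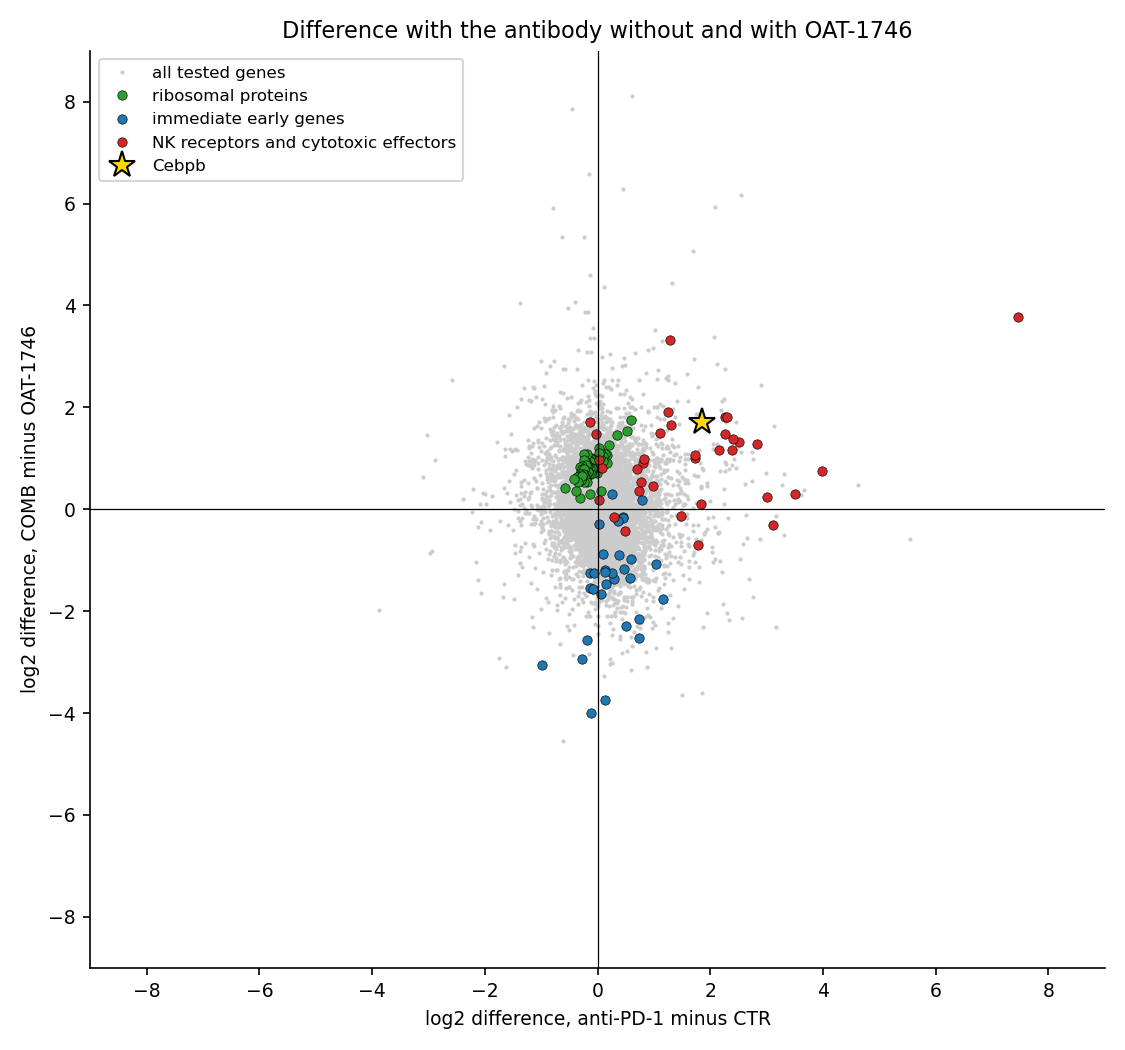
Log2 difference of each of 12538 genes for anti-PD-1 minus CTR (horizontal) and COMB minus OAT-1746 (vertical), 2 comparisons with no library in common, as grey points with gene lists in color and Cebpb as a star. NK receptors and cytotoxic effectors lie mostly right of and above 0, immediate early genes mostly below 0 on the vertical axis, and the rightmost point is Klrc2, whose CTR libraries hold 0 reads, so that its fitted position is no bound.

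Neurons and macrophages switch on immediate early genes within minutes of a stimulus or of handling. The median of this list was not the same in each setting, and that difference was not tested for the list as a whole. Of 31 tested members, 11 were lower and 0 higher in the main comparison at an unadjusted p under 0.05. Over all tested genes 5.35% were lower and 6.3% higher. DESeq2 called 1 of the 31 lower and edgeR 0. The median was -0.61, against 0.25 for anti-PD-1 against CTR and -1.26 for COMB against OAT-1746. In the latter edgeR called 23 of the 31 lower, beside 8.94% of all tested genes. The count was 3 without OAT-1746 replicate 2, 3 without COMB replicate 2 and 2 without COMB replicate 3, with medians of -1.04, -1.31 and -1.34. The anti-PD-1 median was 0.41 without CTR replicate 1, 0.52 without anti-PD-1 replicate 1 and -0.05 without anti-PD-1 replicate 2. The main median was -0.33 without OAT-1746 replicate 2, and the 11 lower genes became 20 without anti-PD-1 replicate 2. Their summed level was 15168 and 14269 CPM in CTR, 21319.9 and 30445 in OAT-1746, 14354 and 18599 in anti-PD-1 and 8379, 9368 and 9475 in COMB. The OAT-1746 pair was highest and the COMB trio lowest, with no overlap of either with CTR.

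Egr1, a zinc finger transcription factor of this class, was at 767 and 851 CPM in CTR, 2591 and 3730.0 in OAT-1746, 655 and 1117 in anti-PD-1 and 224, 231 and 256 in COMB. The anti-PD-1 and CTR libraries overlapped, the OAT-1746 pair was above them and COMB below. The difference was 0.13 ± 0.27 for anti-PD-1 against CTR and -3.74 ± 0.26 for COMB against OAT-1746 (edgeR adjusted p = 0.980 and 0.00148). The interaction, which is the COMB difference minus the anti-PD-1 difference, was -3.87 ± 0.37 (edgeR adjusted p = 0.0285). Averaging the settings with equal weight made Egr1 the only gene called for the main effect, at -1.80 (edgeR adjusted p = 0.0499). Jun, a subunit of the transcription factor AP-1, was at 1412 and 1244 CPM in CTR, 2826 and 4376 in OAT-1746, 1587 and 2184 in anti-PD-1 and 821, 671 and 718 in COMB. The anti-PD-1 pair was above CTR, the OAT-1746 pair above both and COMB below, with an interaction of -2.80 ± 0.34.

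The interaction passed 0.05 in edgeR for 1 gene above 0 (0.00798%) and 44 below (0.351%), so the shared antibody effect that the joint model assumes did not hold for them. DESeq2 called 453 and 600. Without OAT-1746 replicate 2 edgeR called 0 above and 26 below, 23 of which were among the 44, and all 44 kept their direction in every leave-out. The counts above and below 0 were 1640 and 1094 without OAT-1746 replicate 1, 104 and 320 without COMB replicate 1, and 0 and 35 without anti-PD-1 replicate 1. They were 0 and 0, at unadjusted counts of 894 and 1351, without COMB replicate 2, and likewise 0 and 0 without COMB replicate 3 (unadjusted 1067 and 1121), CTR replicate 1 (985 and 1329), CTR replicate 2 (1098 and 1621) or anti-PD-1 replicate 2 (1255 and 1398). Below 0 were 7 of the 31 immediate early genes, and also Tnf, the gene of tumor necrosis factor, at 123 and 151 CPM in CTR, 176 and 167 in OAT-1746, 94.98 and 149.96 in anti-PD-1 and 46.5, 43.2 and 36.9 in COMB. Tnf was lowest in COMB, and the other groups lay closer together. The gene above 0 was Ung, a DNA repair glycosylase named here after its value was seen, at 8.89 and 5.88 CPM in CTR, 1.51 and 0.744 in OAT-1746, 4.39 and 4.85 in anti-PD-1 and 5.34, 6.01 and 5.39 in COMB. Its OAT-1746 pair was below every other library.

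Of 80 ribosomal protein genes tested, 78 were above 0 in the main comparison, with a median of 0.38. At an unadjusted p under 0.05, 16 were higher, beside 6.3% of all tested genes, while DESeq2 called 2 and edgeR 0. The unadjusted count was 36 without CTR replicate 1, 4 without OAT-1746 replicate 1, 8 without OAT-1746 replicate 2, 10 without COMB replicate 3, 33 without anti-PD-1 replicate 2 and 9 with the length and GC correction. The median was -0.12 for anti-PD-1 against CTR (-0.05 without CTR replicate 1, -0.22 without CTR replicate 2, -0.18 without anti-PD-1 replicate 1, -0.07 without anti-PD-1 replicate 2 and -0.20 with the length and GC correction). It was 0.82 for COMB against OAT-1746, where edgeR called 58 higher, beside 6.84% of all tested genes. That median was 0.44 with the length and GC correction, and that number 27 without CTR replicate 1, 26 without CTR replicate 2, 1 without OAT-1746 replicate 2, 1 without COMB replicate 2, 0 without COMB replicate 3, 30 without anti-PD-1 replicate 1, 32 without anti-PD-1 replicate 2 and 28 with the length and GC correction. The main median was 0.18 without OAT-1746 replicate 2 and 0.14 with the length and GC correction. Short genes leaned the same way. In the fifth of genes with the shortest transcripts the median was 0.21 in the main comparison and 0.38 for COMB against OAT-1746, and in the fifth with the longest it was -0.16 and -0.30. For anti-PD-1 against CTR these medians were 0.03 and 0.02. How far gene length or RNA quality contributes was not tested.

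As a share of all counts, mitochondrial genome transcripts were 1.32 and 1.10% in CTR, 2.46 and 2.26 in OAT-1746, 0.779 and 1.43 in anti-PD-1, 1.61, 0.810 and 0.931 in COMB libraries. The OAT-1746 pair held the most and the other groups overlapped. Of 13 genes 7 were tested, 5 others having 0 reads in all libraries. At an unadjusted p under 0.05, 4 were lower, beside 5.35% of all tested genes, with 0 called by edgeR and 2 by DESeq2. The median was -0.84 (-0.24 for anti-PD-1 against CTR, -1.37 for COMB against OAT-1746). The anti-PD-1 value was -0.06 without CTR replicate 1, -0.59 without CTR replicate 2, 0.28 without anti-PD-1 replicate 1 and -1.07 without anti-PD-1 replicate 2. Genes of neurons, which the sort should remove, had 6 of 9 tested members lower at that threshold, beside 5.35% of all tested genes. Of the 9, 0 were called by edgeR and 1 by DESeq2, and the median was -1.11. The unadjusted count was 3 without OAT-1746 replicate 2, 3 without COMB replicate 2 and 3 without COMB replicate 3. Their summed level was 15.5 and 27.1 CPM in CTR, 56.7 and 50.01 in OAT-1746, 19.8 and 22.99 in anti-PD-1 and 16.0, 13.9 and 14.4 in COMB. The OAT-1746 pair again stood above all other libraries. NF-kB pathway genes were mixed, with 3 of 31 higher and 6 lower before adjustment, beside 6.3% and 5.35% of all tested genes. Calls by edgeR or DESeq2 were 0. These genes had a median of 0.03 that was -0.01 without CTR replicate 1, -0.02 without CTR replicate 2, 0.01 without OAT-1746 replicate 1, 0.02 without OAT-1746 replicate 2, -0.11 without anti-PD-1 replicate 2 and 0.05 with the length and GC correction. Their higher count was 6 without OAT-1746 replicate 1 and 5 without anti-PD-1 replicate 1, and their lower count 3 without OAT-1746 replicate 2, 2 without COMB replicate 1, 2 without COMB replicate 2 and 2 without COMB replicate 3. What neuronal RNA, mitochondrial share or handling contribute to the differences between these libraries was not tested.

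**Figure D5:**
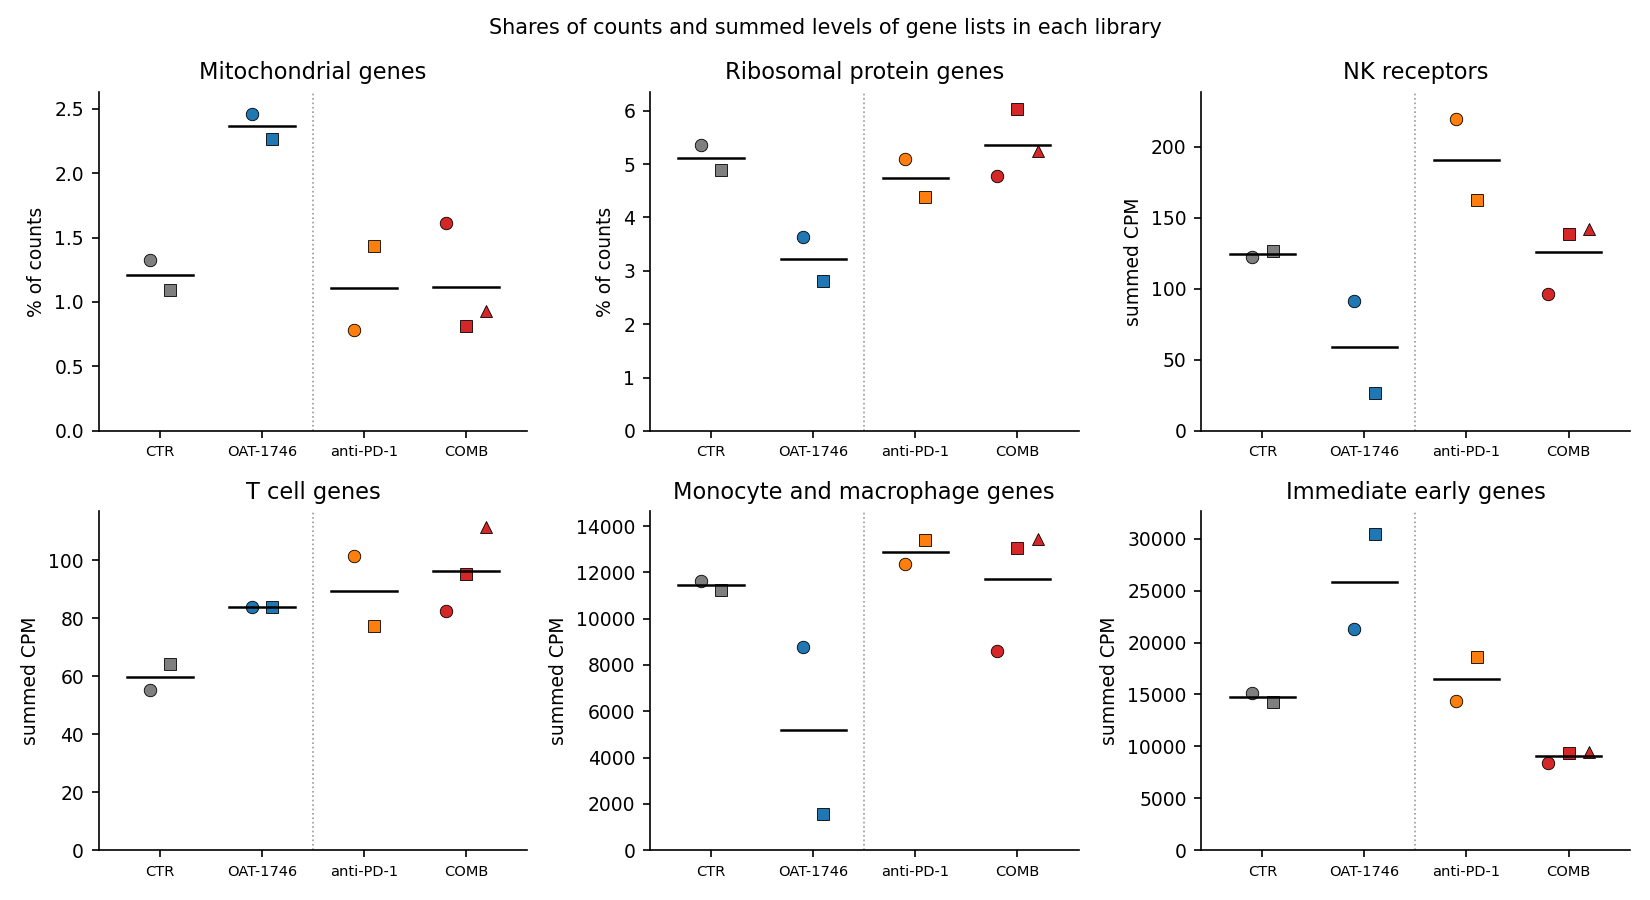
Percent of counts on mitochondrial and ribosomal protein genes, and summed CPM of 4 gene lists, in each of the 9 libraries, with a symbol per replicate and a line at the group mean. The OAT-1746 pair is apart from the other libraries for mitochondrial, ribosomal protein and immediate early genes, and OAT-1746 replicate 2 for monocyte and macrophage genes, at 1581 CPM.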

How the data were processed

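Gene counts of 9 poly-A RNA-seq libraries were analyzed. Per the study's methods, the authors used Trimmomatic for trimming and STAR for alignment to mm10, marked duplicates in Picard and made the deposited counts with HTSeq in reverse-stranded mode at a mapping quality of at least 10, with no normalization. Of 53801 listed genes 53620 matched GENCODE M21, and 21890 were protein-coding. edgeR 4.0.16 in R 4.3.3 kept 12538 with filterByExpr (minimum count 10, 4 groups), scaled by TMM. Quasi-likelihood F tests used terms for OAT-1746 and antibody (biological coefficient of variation 0.255), and a fit of 4 group means (0.214) gave the single comparisons and the interaction. DESeq2 1.42.0 and limma 3.58.1 served as alternatives, beside other scaling, filters, gene types, weighting, covariates and leaving out each library. The fits were tested on simulated data. Genes were named as the 12 smallest p per direction at a mean of at least 1 CPM. Others were picked from list members with a small p and from genes of the pathways treated, and not every such gene is described. Members and lists were chosen with earlier results of these data known, and the list of neuronal genes and the length and GC correction (loess, span 0.5) were added after the values had been seen. Python 3.11.15 with matplotlib 3.10.9 drew the figures.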

Additional observations from a re-analysis of the deposited data

Results flagged for a closer look

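For 47 genes the libraries of each set, antibody-free and antibody-treated, were searched for a single library far from the rest of its set (Dixon's ratio of gap to range over 0.829 for 4 libraries and 0.71 for 5). Of 94 sets 9 had such a library. Chance gives about 1 in 20 for a set drawn from a single uniform group. The sets here join groups of different treatment and many genes were named for a small p, so that rate is no reference for the count. Egr3 was 42.2 CPM in OAT-1746 replicate 2, against 8.88 to 13.9 in the other antibody-free libraries, and 7.72 in anti-PD-1 replicate 2, against 2.71 to 3.97 in the other antibody-treated libraries. Anti-PD-1 replicate 1 was high for Klrc1 (5.02 against 1.63 to 2.13), Klrc2 (2.2995 against 0.507 to 0.993) and Klra4 (6.69 against 1.34 to 2.82). OAT-1746 replicate 2 was low for Klrb1c (0.858 against 3.06 to 3.18). OAT-1746 replicate 1 was high for Serpinb6b (9.08 against 4.81 to 5.23). COMB replicate 1 was low for Igtp (149.97 against 250.4 to 288) and high for P2ry12 (2539 against 1534 to 1802).

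The antibody difference depended on OAT-1746 for 1 gene with an interaction above 0 and 44 below it (edgeR adjusted p under 0.05). Among the named genes these were Egr1 (-3.87, adjusted p = 0.0285 in edgeR), Jun (-2.80, edgeR adjusted p = 0.0289), Tnf (-1.86, edgeR adjusted p = 0.0495) and Ung (2.97, edgeR adjusted p = 0.0477).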

How the results depend on the processing

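All 24 genes with the smallest p at a mean of at least 1 CPM, 12 in each direction, kept their direction under every alternative tried. They were picked for that p in the same libraries, so a kept direction is no independent test. The antibody effect had 0 calls in edgeR in every leave-out. DESeq2 called 69 higher and 23 lower, and equal weight per group 1 lower. Unadjusted counts of 790 higher and 671 lower became 352 and 176 with the replicate number as a block, and 1177 and 1011 with equal weight. Leave-outs gave 444 (COMB replicate 3) to 1089 (CTR replicate 1) higher, and 293 (OAT-1746 replicate 2) to 1212 (anti-PD-1 replicate 2) lower. For anti-PD-1 against CTR, DESeq2 called 14 higher. For COMB against OAT-1746, calls higher were 1651 with DESeq2, 0 with the block, 1356 with limma voom, 567 with the length and GC correction, 2 with only those libraries, and 0 (COMB replicate 3) to 2330 (OAT-1746 replicate 1) in leave-outs. Calls lower were 2 with the block, 28 with only those libraries, and 5 (COMB replicate 3) to 1703 (OAT-1746 replicate 1) in leave-outs. Interaction calls above 0 were 453 with DESeq2, 0 with library size only, 15 with no count filter, 0 with all genes, 0 with the block, 86 with limma voom and 0 (CTR replicate 1) to 1640 (OAT-1746 replicate 1) in leave-outs. Those below 0 were 600, 24, 131, 18, 0 and 342 in that order, and 0 (CTR replicate 1) to 1094 (OAT-1746 replicate 1) in leave-outs. The cause was not tested. Libraries of different groups share only a number: deviations from the group mean correlated between same-numbered libraries at -0.349 to 0.0999. Of 588 list medians under alternatives 29 had another sign, in 9 of 28 lists. Groups hold 2 or 3 libraries, and genes under about 1 CPM rest on few reads. Low genes that passed the minimum-count filter through the libraries of a single set entered their lists with the direction given.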
